A study of Mus musculus with 15 samples.

Results

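Genes of the oxygen carrier hemoglobin and of its prosthetic group heme were followed in mouse liver. The 6 genes were the adult alpha globin genes Hba-a1 and Hba-a2, the adult beta globin genes Hbb-bs and Hbb-bt, and both genes for 5-aminolevulinate synthase, Alas1 and Alas2. They were chosen by mouse symbol among 54281 Ensembl gene IDs, and all 6 of 6 were present and passed the filter on low values. Liver RNA was sequenced from male C57BL6J mice of 9.5 months in 4 groups, with 1 library per animal. Animals kept on chow had received vehicle at 2 weeks of age, and were injected intraperitoneally with saline (n = 3) or with MCOPPB (n = 5), a synthetic ligand of the nociceptin receptor. The DEN/HFD animals had received the liver carcinogen diethylnitrosamine (DEN, 25 mg/kg) at 2 weeks of age and later, for 32 weeks, a diet rich in lard (HFD, 60% of its energy as fat), and were injected with saline (n = 4) or MCOPPB (n = 3). MCOPPB was given at 5 mg/kg in 3 cycles of 5 injection days and 2 days without injection, over 21 days. DEN and the diet were always given together, so their parts cannot be told apart. In whole liver, fewer cells of a type and less RNA per cell cannot be told apart either.

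Adult hemoglobin holds a pair of alpha chains and a pair of beta chains, each carrying a heme. Globin messages belong above all to the red cell lineage. In adult liver they can come with the blood that the organ holds, mainly with reticulocytes, the young red cells that still carry RNA. The source of the globin signal in these livers was not tested. Heme is made from glycine and succinyl-CoA in a chain of enzymes that starts and ends in the mitochondrion, and ALA synthase is its first and rate-setting step. Alas1 is the housekeeping form, abundant in hepatocytes, where much of the heme goes to cytochromes P450, and heme itself represses it. Alas2, on the X chromosome, is the erythroid form, and loss of its function causes X-linked sideroblastic anemia in humans.

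Hba-a1 (ENSMUSG00000069919.7, chr11:32283511-32284465, plus strand) and Hba-a2 (ENSMUSG00000069917.7, chr11:32296489-32297298, plus strand) lie beside each other in GRCm38 and have 3 exons each. Hbb-bt (ENSMUSG00000073940.3, chr7:103812524-103813996) and Hbb-bs (ENSMUSG00000052305.6, chr7:103826534-103828096) are neighbours on the minus strand, also with 3 exons each. Alas1 (ENSMUSG00000032786.16, chr9:106233455-106248654, minus strand) and Alas2 (ENSMUSG00000025270.13, chrX:150547375-150570638, plus strand) have 11 exons in their longest coding transcripts. Since the globin genes share sequence, a read of 75 bases often cannot be given to 1 gene. Of the 75-base windows of the Hba-a2 transcript, 81.0% (389 of 480) also occurred in Hba-a1, and 62.2% of those of Hba-a1 occurred in Hba-a2. In Hbb-bs 64.3% (356 of 554) were shared with Hbb-bt, and in Hbb-bt 56.6% (356 of 629) with Hbb-bs. No window of Alas1 (0 of 3325) or Alas2 (0 of 1963) occurred in a transcript of another gene in GENCODE M21. The handling of reads with several matches is not given in the sources used here, so the level of a single globin gene is uncertain. The sums of the alpha and of the beta pair are given too. Reads left out at counting would be missing from the sums as well.

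The sequences before the start sites are shown because the levels of the 4 globin genes were correlated across animals while that of Alas2, the other erythroid gene, was not. They are RefSeq promoter windows of 250 bases before the start (GRCm38.p6), printed 5′ to 3′ on the gene's strand and ended where the first annotated coding transcript begins. Capitals mark 4 motifs on either strand, a choice made after the sequences were seen: GATAA, read by the erythroid GATA factors, the box CCAAT, the box CACCC, read by Krüppel-like factors, and the start-site element TATAA. All are known elements of globin promoters. The capitals that end the Hbb-bt line run into a CCAAT box that continues past the printed end.
Hba-a2, chr11:32296242-32296488, plus strand: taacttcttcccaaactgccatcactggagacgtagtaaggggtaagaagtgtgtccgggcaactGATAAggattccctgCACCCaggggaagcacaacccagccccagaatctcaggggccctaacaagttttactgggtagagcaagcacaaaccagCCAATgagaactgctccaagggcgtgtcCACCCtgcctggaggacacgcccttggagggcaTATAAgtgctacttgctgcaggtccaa
Hbb-bs, chr7:103828097-103828178, minus strand: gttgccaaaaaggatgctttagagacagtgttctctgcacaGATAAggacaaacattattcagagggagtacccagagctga
Hbb-bt, chr7:103813997-103814173, minus strand: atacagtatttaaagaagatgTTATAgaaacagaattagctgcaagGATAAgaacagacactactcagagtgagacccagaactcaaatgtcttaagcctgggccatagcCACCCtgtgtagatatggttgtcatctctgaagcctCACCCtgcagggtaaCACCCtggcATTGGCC
Alas2, chrX:150547167-150547374, plus strand: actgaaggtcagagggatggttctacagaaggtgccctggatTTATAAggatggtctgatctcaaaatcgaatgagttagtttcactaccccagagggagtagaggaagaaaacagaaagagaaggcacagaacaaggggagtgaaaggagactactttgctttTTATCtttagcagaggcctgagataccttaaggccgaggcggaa
The Hba-a1 window was identical to that of Hba-a2 over a run of 247 bases. Those of Hbb-bs and Hbb-bt matched at 69.3% of aligned positions. Over the full 250 bases, each of the 4 globin windows held all 4 motifs, as did 0.968% (318 of 32851) of all mouse promoter windows. Single motifs were common: 22.6% of the 32851 windows held GATAA, 33.9% CCAAT, 52.0% CACCC and 22.8% TATAA. In the globin windows TATAA began 27 to 30 bases before the RefSeq start, and CCAAT on the gene's strand 75 to 91 bases before it. The Alas2 window held GATAA on the opposite strand, TATAA and 3 adjacent CACCC on the opposite strand, which lie in the stretch not printed, and no CCAAT. Both Alas1 windows held CACCC alone. A match of letters is no evidence that a factor binds there. The motifs were chosen with these sequences in view, so their presence in all 4 globin windows is only a description. Their part in the correlation of levels was not tested.

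Levels are given as normalized counts, obtained by inverting the variance-stabilising transform of the deposited log2 values. They are scaled between libraries but not for transcript length. Log2 differences were taken on the deposited values, where low counts lie closer together. For genes at low levels they are therefore smaller than the printed counts imply. For Hbb-bt in DEN/HFD against chow with MCOPPB, the difference was -1.14 on the deposited values and -1.43 on log2(normalized count + 1). Libraries held an estimated 9300000 to 18700000 counted reads, taken from the steps of low values, and 13863 to 16675 gene IDs lay above the lowest value. The tissue label was checked against albumin (Alb), which stood at 1192310.0 to 3303050.0 normalized counts, and mitochondrial genes took 12.0% to 31.0% of normalized counts. The labels carry 2 RNA integrity numbers per library that disagree. The first listed was 9.9 to 10 in the chow MCOPPB libraries and 8.4 to 9.7 in the 10 others, without overlap. The second listed was 8.9 to 9.6 in the chow MCOPPB libraries and 8.9 to 9.6 in the others.

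As counted, the adult globins were a small and variable part of the liver transcriptome. The 4 summed to 2045 to 16352 normalized counts, or 0.0107% to 0.102% of all normalized counts in a library. If reads that match both genes of a pair were not counted, these values are too low. Per kilobase of transcript, the mean level over the 15 livers was highest for Hba-a2, at 4933 ± 3331 normalized counts per kilobase (SD), followed by Hbb-bs (4089 ± 2226), Hba-a1 (2138 ± 1377), Alas1 (763 ± 445), Hbb-bt (556 ± 362) and Alas2 (251 ± 121). Each neighbouring pair in that order differed by less than the larger SD of the pair. Whole transcript lengths were used, so the order also depends on how reads shared between globin genes were counted, which is not given. The same holds for the globin ranks that follow. By rank among all genes in a library, Hba-a2 stood between 152 and 1383, Hbb-bs between 216 and 1295, Alas1 between 242 and 1561 and Alas2 between 1053 and 4583.

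Hba-a1 encodes an alpha chain. Its level in the chow saline livers was 786, 635 and 1425 normalized counts. In the chow MCOPPB livers it was 2738, 2476, 1609, 2342 and 1311. In the DEN/HFD saline livers it was 913, 1309, 3874 and 372, and in the DEN/HFD MCOPPB livers 922, 800.4 and 907. The DEN/HFD saline group therefore held both the highest and the lowest of the 15 livers, and the DEN/HFD MCOPPB livers lay within 1.15 times of each other and below every chow MCOPPB liver.

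Hba-a2, the other alpha chain gene, measured 1321, 1059 and 3143 normalized counts in the chow saline livers. The chow MCOPPB livers had 4265, 5303, 3085, 3858 and 2556. The DEN/HFD saline livers had 1577, 2032, 7448 and 743, and the DEN/HFD MCOPPB livers 1526, 1514 and 1562. The coefficient of variation was 1.62% in the DEN/HFD MCOPPB group and 103% in the DEN/HFD saline group. Chow saline replicate 3 and DEN/HFD saline replicate 3 were the high ones of their groups, as for Hba-a1.

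Hbb-bs, the more abundant beta chain gene, measured 1827, 806 and 5033 normalized counts with chow and saline. It measured 4237, 4277, 3540.3, 3013 and 2967 with chow and MCOPPB. Under DEN/HFD it was 1884, 1917, 4072 and 814 with saline and 1262, 1195 and 1677 with MCOPPB. The highest of all was chow saline replicate 3, and the chow groups overlapped because of it.

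Hbb-bt, the less abundant beta chain gene, measured 204, 210.1 and 644 normalized counts with chow and saline and 783, 582, 398, 532 and 374 with chow and MCOPPB. Under DEN/HFD it measured 218, 261, 958 and 117 with saline and 221, 145 and 214 with MCOPPB. The same 2 saline livers stood above the rest of their groups.

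**Figure D1:**
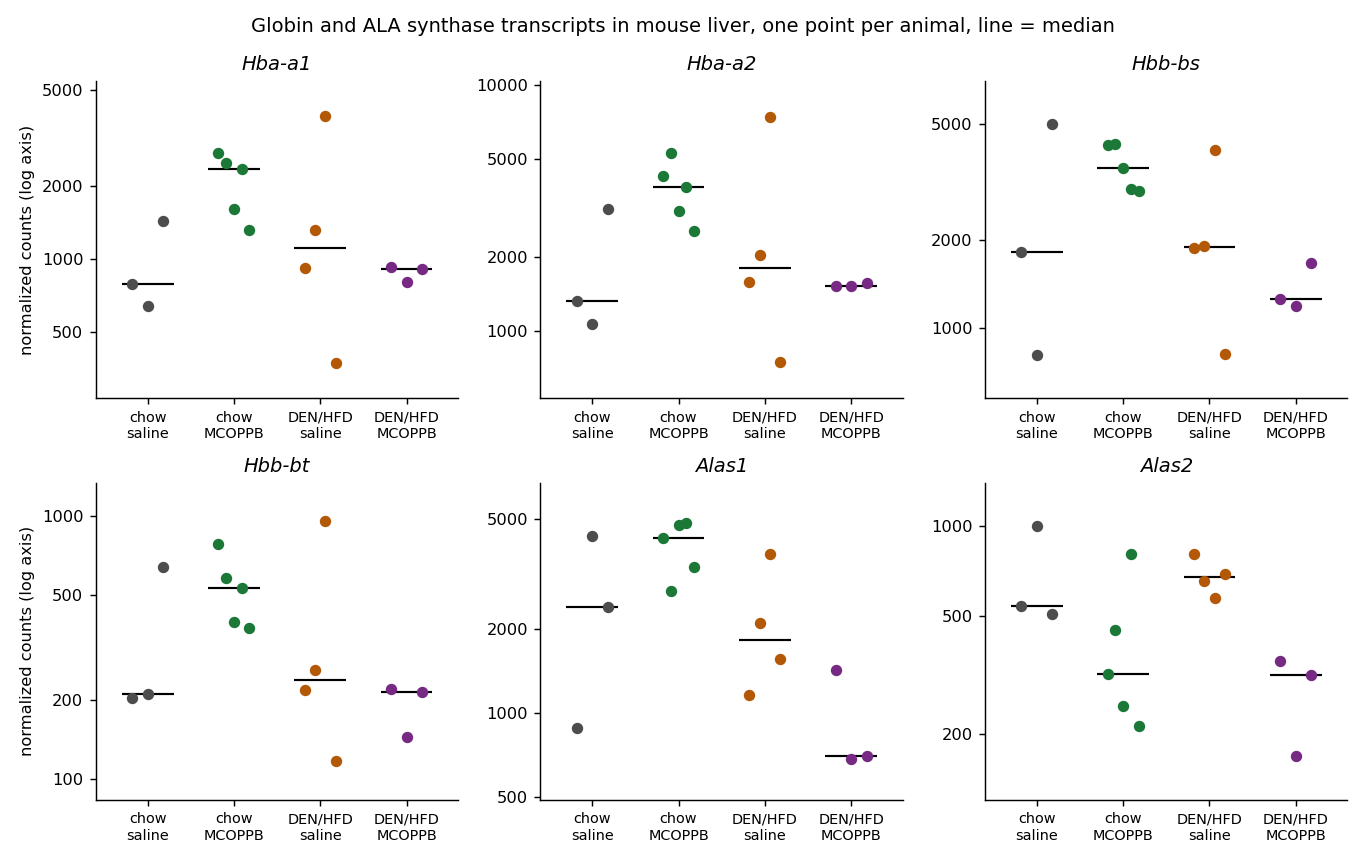
Normalized counts on a log axis for the 6 genes in each of 15 livers, by group, with 1 point per animal and a line at the group median. The globins span from 372 to 3874 (Hba-a1) within the DEN/HFD saline group alone, while the 3 DEN/HFD MCOPPB livers lie close together and below all 5 chow MCOPPB livers.

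Within the globins, proportions varied less than levels. Hba-a2 made up 37.3% ± 3.89 (SD, n = 15) of the 4 globins' normalized counts, Hbb-bs 36.6% ± 6.28, Hba-a1 20.7% ± 2.90 and Hbb-bt 5.39% ± 0.949. The ratio of alpha to beta counts averaged 1.43 ± 0.360 and ran from 0.805 in chow saline replicate 3 to 2.25 in DEN/HFD saline replicate 3. Both of those are high-globin livers, so high globin came once with the lowest and once with the highest ratio. As counted, Hba-a2 exceeded Hba-a1 in 15 of 15 livers, by 1.55 to 2.20 times, and Hbb-bs exceeded Hbb-bt by 3.84 to 8.96 times.

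The summed alpha and summed beta globins were correlated across the 15 livers, on a log2 scale, with Pearson's r = 0.92 (two-sided permutation test, p = 1e-05, the smallest that 100000 permutations can give, adjusted p = 4e-05 over 4 relations) and Spearman's rho = 0.918 (permutation p = 2e-05). Without the 2 livers farthest from the median, DEN/HFD saline replicates 3 and 4, r was 0.906, and on deviations from the group means it was 0.897. Both sums come from the same libraries, whose composition they share. Alas2 had no such relation to the summed globins (r = -0.14, permutation p = 0.608, rho = -0.114, permutation p = 0.687), nor without those 2 livers (r = -0.125). Alas1 with the summed globins gave r = 0.57 (permutation p = 0.0287, adjusted p = 0.0574) and rho = 0.514 (permutation p = 0.0528). Within groups, as deviations from group means, that r was 0.263, and it was 0.753 (adjusted permutation p = 0.00414) without chow saline replicate 2, which had the second lowest globin sum and 4322 normalized counts of Alas1. The neutrophil messages S100a8 and S100a9, summed, served as a measure of another blood cell and gave r = 0.18 (permutation p = 0.508) and rho = 0.189 (permutation p = 0.498), and r = 0.177 without the same 2 livers. They were low, at 2.64 to 95.5 normalized counts.

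**Figure D2:**
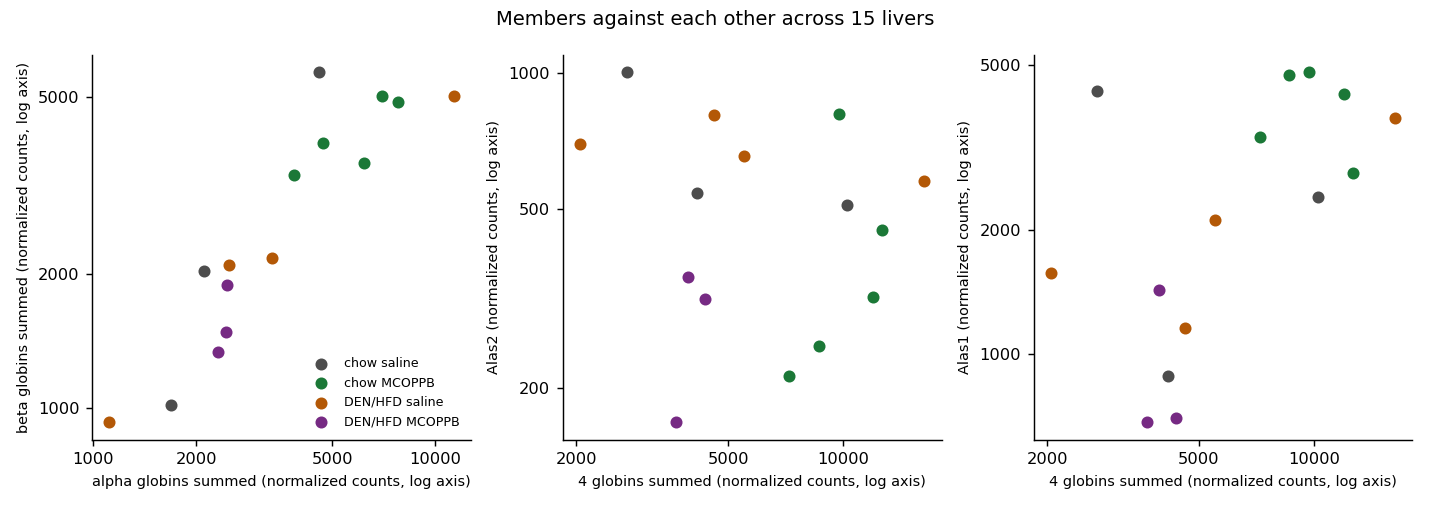
Summed beta against summed alpha globins, and Alas2 and Alas1 against the 4 summed globins, in normalized counts on log axes, with 1 point per liver coloured by group. The alpha and beta sums rise together (r = 0.92), while Alas2 scatters without a trend (r = -0.14).

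Alas1, the housekeeping ALA synthase, measured 886, 4322 and 2403 normalized counts in the chow saline livers. The chow MCOPPB livers had 4252, 2744, 4732, 4814 and 3343. The DEN/HFD saline livers had 1159, 2107, 3735 and 1571, and the DEN/HFD MCOPPB livers 1426, 683 and 700.2. The 3 DEN/HFD MCOPPB livers lay below all 5 chow MCOPPB livers, and 2 of them were the lowest of all 15. The saline groups were wide, spanning 886 to 4322 on chow and 1159 to 3735 under DEN/HFD, and overlapped.

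Alas2, the erythroid ALA synthase, measured 541, 1002 and 509 normalized counts with chow and saline, and 319, 449, 248, 809.6 and 213 with chow and MCOPPB. Under DEN/HFD it measured 806, 654, 576 and 694 with saline and 352, 168 and 315 with MCOPPB. All 3 DEN/HFD MCOPPB livers lay below all 4 DEN/HFD saline livers. On chow, 4 of 5 MCOPPB livers lay below every saline liver and replicate 4 lay among them.

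By group mean, all 4 globins and Alas1 were highest in the chow MCOPPB and lowest in the DEN/HFD MCOPPB livers, while Alas2 was highest in the chow saline (684 ± 276) and DEN/HFD saline (682 ± 95.8) livers and lowest in the DEN/HFD MCOPPB livers (278 ± 97.2). Groups next to each other in such an order overlapped for each of the 6 genes.

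The balance of the ALA synthases lay furthest towards Alas1 in the chow MCOPPB livers. The ratio of Alas1 to Alas2 counts was 5.95 to 19.1 there (mean 12.0 ± 5.85), against 1.64 to 4.72 in the chow saline, 1.44 to 6.49 in the DEN/HFD saline and 2.22 to 4.06 in the DEN/HFD MCOPPB livers. This ratio was not tested. Alas2 per 1000 globin counts ran from 26.5 to 83.1 in the chow MCOPPB livers and from 35.2 to 369.9 in the 10 others.

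On chow, none of the 6 genes passed the test of MCOPPB against saline (limma on the log2 values of all 15 libraries, Benjamini-Hochberg adjusted p under 0.05), and 0.32% of the 11568 genes tested did. Hba-a1, Hba-a2 and Alas2 were under 0.05 before adjustment, as were 9.06% of all genes (4.76% higher and 4.3% lower). The mean of Hba-a1 was 949 ± 419.7 normalized counts in the saline livers and 2095 ± 606 in the treated ones, which gave a log2 difference of 1.10 ± 0.46 (SE, adjusted p = 0.493). Hba-a2 differed by 1.13 ± 0.49 (adjusted p = 0.513). Hbb-bs and Hbb-bt differed by 0.82 ± 0.45 and 0.61 ± 0.41 (adjusted p = 0.634 and 0.707). For all 4 globins the groups overlapped through chow saline replicate 3. Without it Hbb-bs differed by 1.48, and without chow saline replicate 2 by 0.22. With the first-listed RNA integrity number as a covariate, the differences were 1.90 for Hba-a1, 2.16 for Hba-a2, 1.84 for Hbb-bs, 1.4 for Hbb-bt, 0.54 for Alas1 and -1.41 for Alas2, and none passed. Alas1 differed by 0.85 ± 0.41 (adjusted p = 0.563) and Alas2 in the opposite direction by -0.71 ± 0.31 (adjusted p = 0.512). The 95% interval of the Hba-a1 difference ran from 0.13 to 2.07.

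Under DEN/HFD, none of the 6 passed the test of MCOPPB against saline, and 0.0259% of genes (3 of 11568) did. Both ALA synthases were under 0.05 before adjustment, as were 4.74% of all genes (2.3% higher and 2.44% lower). Alas2 fitted lower with MCOPPB by a log2 difference of -1.12 ± 0.32 (adjusted p = 0.579), from 682 ± 95.8 to 278 ± 97.2 normalized counts. The groups did not overlap, a pattern that 3.74% of all genes had in that direction and 3.22% in the other. Alas1 differed by -1.07 ± 0.43 (adjusted p = 0.923), with overlapping groups. The 4 globins differed by -0.39 to -0.48 with SE of 0.43 to 0.51 (adjusted p = 1). Their sign rested on DEN/HFD saline replicate 3: without it Hba-a1 differed by 0.16, Hba-a2 by 0.18 and Hbb-bt by about 0, while Hbb-bs stayed at -0.07.

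Between saline groups, no gene of the 6 passed the test of DEN/HFD against chow, none had an unadjusted p under 0.05, and 0.0519% of all genes passed (before adjustment 11%, of which 5.46% higher and 5.5% lower). The log2 differences ran from -0.11 (Alas1) to 0.36 (Hba-a1), with SE of 0.32 for Alas2 and 0.43 to 0.51 for the other genes. All groups overlapped. The 95% interval of Hba-a1 was -0.66 to 1.38 and that of Alas2 -0.63 to 0.72, in 7 livers.

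Among MCOPPB-treated animals, Alas1 was lower under DEN/HFD than on chow and was the only one of the 6 to pass the test, where 0.571% of all genes passed (0.225% higher and 0.346% lower). It averaged 937 ± 424 normalized counts (SD, n = 3) against 3977 ± 904 (n = 5), a log2 difference of -2.03 ± 0.41 (adjusted p = 0.0289), or 0.244 times the chow level. It ranked 48th of 11568 genes by p. The first-listed RNA integrity number was 9.9 to 10 in these chow livers and 8.7 to 9.2 in these DEN/HFD livers. Its part in this comparison cannot be told apart from that of DEN/HFD. All 4 globins also lay lower in each DEN/HFD MCOPPB liver than in each chow MCOPPB liver, as 4.68% of all genes did, but did not pass. Hbb-bs differed by -1.33 ± 0.45 (adjusted p = 0.221), Hba-a2 by -1.22 ± 0.49 (adjusted p = 0.305), Hbb-bt by -1.14 ± 0.41 (adjusted p = 0.257) and Hba-a1 by -1.13 ± 0.46 (adjusted p = 0.314). Alas2 differed by -0.36 ± 0.31 (adjusted p = 0.677) with overlapping groups. All but Alas2 were under 0.05 before adjustment, as were 12.3% of all genes (5.98% higher and 6.35% lower).

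The Alas1 call was close to the threshold. It was lost when chow MCOPPB replicate 1, 3 or 5 or DEN/HFD MCOPPB replicate 2 or 3 was left out (adjusted p = 0.0585 to 0.197, log2 difference -2.09 to -1.87) and with the first-listed RNA integrity number as a covariate (-1.63 ± 0.73, adjusted p = 0.354), under which no gene of all those tested passed in this comparison. With that covariate the globin differences were wider and also did not pass, at -2.19 ± 0.77 for Hba-a1, -2.60 ± 0.78 for Hba-a2, -2.68 ± 0.70 for Hbb-bs and -2.19 ± 0.67 for Hbb-bt (adjusted p = 0.273 to 0.316), and that of Alas2 was 0.56 ± 0.48. With the spread estimated from these 8 livers alone, Alas1 and all 4 globins passed (adjusted p = 0.00362 for Alas1, 0.00889 to 0.0393 for the globins). That fit leaves out both saline groups. In it 69 of 11568 genes passed as higher and 66 as lower, against 26 and 40 in the fit of all 15 libraries. The difference between the MCOPPB effects under DEN/HFD and on chow, which the 4 groups allow as an interaction, did not pass for any of the 6 genes, with 0.0692% of all genes passing. It was -1.92 ± 0.60 for Alas1 (adjusted p = 0.577), -1.54 ± 0.71 for Hba-a2, -1.49 ± 0.67 for Hba-a1 (both adjusted p = 0.833) and -0.41 ± 0.45 for Alas2 (adjusted p = 0.898). Alas1, Hba-a1 and Hba-a2 were under 0.05 before adjustment, as were 5.9% of all genes. The comparisons share groups, so they are not independent of each other.

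**Figure D3:**
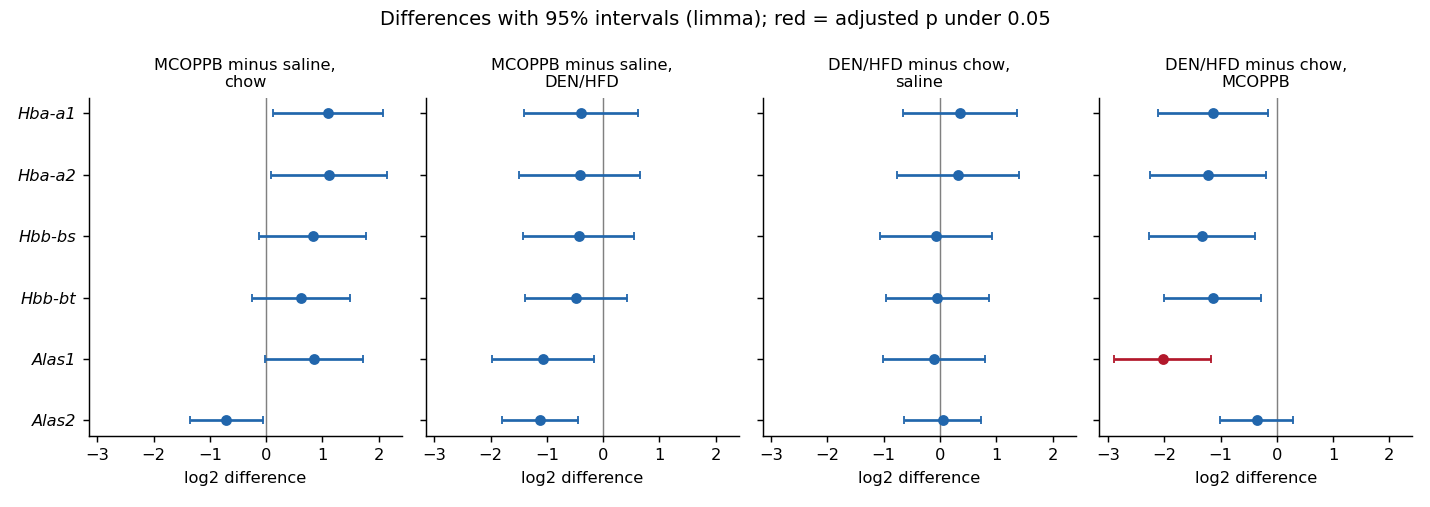
Log2 differences with 95% intervals from limma for the 6 genes in the 4 comparisons of 2 groups, red where the adjusted p is under 0.05. Alas1 in DEN/HFD against chow with MCOPPB, at -2.03, is the only red point, and the 4 globins lie near -1.13 to -1.33 beside it.

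The red cell list held 32 genes, of which 26 that are not members were in the table and 10 of those passed the filter. Several red cell membrane and lineage genes were at or near 0, and others were not. Rhd was at 0 in every library, band 3 (Slc4a1) was at 0 to 18 normalized counts and at 0 in all 3 chow saline livers, and the lineage factor Gata1 was at 0 to 6.38. The erythroid factor Klf1 had group means of 23.3 to 46.3, and Ank1, the ankyrin of the membrane skeleton, reached 110 in 1 chow saline liver. The embryonic globins Hba-x, Hbb-y, Hbb-bh1 and Hbb-bh2 were at 0 in every library and so not detectable at this depth. The summed level of the 26 genes was 2272 to 3788 in the chow saline, 2202 to 3879 in the chow MCOPPB, 1882 to 3256 in the DEN/HFD saline and 2148 to 2469 in the DEN/HFD MCOPPB livers, and overlapped between all groups. Fech and Epb41, which are not particular to red cells, had the highest levels in it.

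None of the 10 tested red cell genes passed in any comparison. Before adjustment, 1 was under 0.05 in each of 3 comparisons, Tfrc on chow and Slc25a37 under DEN/HFD and in the MCOPPB groups. In those comparisons 9.06%, 4.74% and 12.3% of all genes were under 0.05 before adjustment. In DEN/HFD against chow with MCOPPB all 10 differences were negative, where 49.4% of all genes had a positive one, and their median was -0.29 against -0.01 over all genes. Slc25a37, mitoferrin-1, which brings iron into the mitochondria of red cell precursors, was 404 ± 72.7 on chow and 218 ± 9.85 under DEN/HFD (log2 difference -0.69 ± 0.17, adjusted p = 0.0864, no overlap). Epb41, protein 4.1 of the membrane skeleton, differed by -0.36 ± 0.18, Klf1, the erythroid Krüppel-like factor, by -0.42 ± 0.25, and the transferrin receptor Tfrc by -0.66 ± 0.33. Fech, Car1, Bpgm, Mkrn1, Xpo7 and Isg20 differed by -0.45 to -0.02. With MCOPPB on chow the median was 0.07, with Tfrc at 0.88 ± 0.33 (adjusted p = 0.415), 76.2 ± 58.2 against 208 ± 142 normalized counts. With MCOPPB under DEN/HFD it was -0.18, with Slc25a37 at -0.53 ± 0.18 (adjusted p = 0.789) and Car1, carbonic anhydrase 1, at -0.41 ± 0.21. Between saline groups it was -0.05.

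Of the later enzymes of heme synthesis, the 6 listed here were all tested, none passed in any comparison and none had an unadjusted p under 0.05. Alad, Uros, Urod, Cpox, Ppox and Fech act on the way from ALA to heme. In DEN/HFD against chow with MCOPPB, where Alas1 was at -2.03, their differences ran from -0.45 ± 0.43 (Fech) to 0.21 ± 0.24 (Urod), with a median of -0.21 and 5 of 6 negative. On chow, MCOPPB minus saline ran from -0.27 ± 0.24 (Urod) to 0.61 ± 0.34 (Cpox, adjusted p = 0.643), with a median of -0.04. Under DEN/HFD it ran from -0.33 ± 0.27 (Alad) to 0.12 ± 0.25 (Urod), with Uros at -0.30 ± 0.18 and a median of -0.22. Between saline groups Ppox differed by -0.38 ± 0.25 and Cpox by 0.42 ± 0.36, with a median of -0.04. The summed level of the 6 was 4022 to 4424, 3609 to 4893, 3585 to 4835 and 3343 to 3680.5 in the chow groups and then the DEN/HFD groups, saline before MCOPPB.

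**Figure D4:**
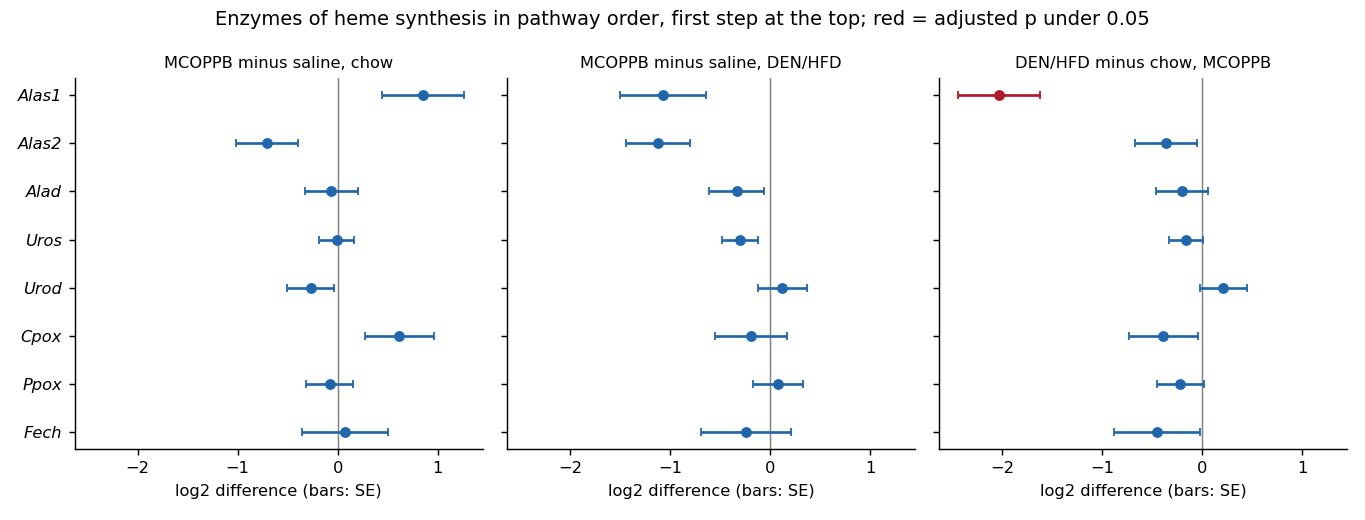
Log2 differences with SE for 8 enzymes of heme synthesis in pathway order, in 3 comparisons, red where the adjusted p is under 0.05. Alas1 and Alas2 are of opposite sign on chow (0.85 and -0.71), and the later enzymes lie between -0.45 and 0.61. The comparison of saline groups, not drawn, had Alas1 at -0.11 and Alas2 at 0.05, nearer 0 than Cpox (0.42) and Ppox (-0.38).

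Of the 15 mitochondrial cofactors of heme synthesis, 15 were tested and none passed. Before adjustment, 0 were higher and 1 lower at p under 0.05 with MCOPPB on chow, and 1 and 2 with MCOPPB under DEN/HFD. Between saline groups there were 1 and 0, and between MCOPPB groups 3 and 1. In the same order, 9.06%, 4.74%, 11% and 12.3% of all genes had such a p, in either direction. Clpx, a mitochondrial unfoldase that acts on ALA synthase, was 452 ± 52.3 with saline and 957 ± 191 with MCOPPB under DEN/HFD (log2 difference 0.95 ± 0.29, adjusted p = 0.648, no overlap). Glrx5, needed for iron-sulfur clusters, differed there by -0.78 ± 0.25 (no overlap) and between saline groups by 0.71 ± 0.25. Slc25a38, the mitochondrial glycine carrier, differed by -0.51 ± 0.20 with MCOPPB on chow, and Isca1, an iron-sulfur assembly factor, by 0.37 ± 0.22. Iscu, the iron-sulfur scaffold, differed by 0.66 ± 0.18 between MCOPPB groups (adjusted p = 0.116), and Suclg1, a subunit of succinyl-CoA ligase, by 0.39 ± 0.19 between saline groups. The list's medians, in the order of these comparisons, were 0.03, 0.03, 0.14 and 0.09, against all-gene medians of 0.00, 0.00, 0.01 and -0.01.

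Among genes for heme breakdown, transport and scavenging, 17 of 18 in the table were tested and none passed. At an unadjusted p under 0.05 there were 3 higher with MCOPPB on chow and 0 with MCOPPB under DEN/HFD. Between saline groups there was 1 higher, and between MCOPPB groups 1 higher and 2 lower. Such a p was found for 9.06%, 4.74%, 11% and 12.3% of all genes in these comparisons, in either direction. Hmox1, heme oxygenase 1, was 59.2 ± 43.7 in the chow saline, 112 ± 30.6 in the chow MCOPPB, 204 ± 84.5 in the DEN/HFD saline and 242 ± 87.4 in the DEN/HFD MCOPPB livers. It differed by 1.17 ± 0.30 between saline groups (adjusted p = 0.181) and by 0.63 ± 0.29 with MCOPPB on chow. Cd163, the macrophage receptor for hemoglobin and haptoglobin, was 60.9 ± 31.6 in the chow MCOPPB and 8.82 ± 15.3 in the DEN/HFD MCOPPB livers (-1.19 ± 0.29, adjusted p = 0.0778), and differed by -0.58 ± 0.31 with MCOPPB under DEN/HFD. The DEN/HFD MCOPPB mean of Cd163 lay near the floor, under the filter's level of 22.5 normalized counts. Ugt1a1, which conjugates bilirubin, differed by -0.85 ± 0.33 between MCOPPB groups. Flvcr2 differed by 0.51 ± 0.24 with MCOPPB on chow, Bach1, a heme-binding repressor, by -0.32 ± 0.19 with MCOPPB under DEN/HFD, and the heme transporter Slc48a1 by 0.33 ± 0.17 between saline groups. The medians in the same order were 0.22, 0.10, 0.15 and 0.05.

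Of the iron handling genes, 25 of 27 were tested and 1 passed in 1 comparison. Ceruloplasmin (Cp), the copper ferroxidase secreted by hepatocytes, rose from 11604 ± 2111 in the chow MCOPPB to 20858 ± 921 in the DEN/HFD MCOPPB livers (log2 difference 0.86 ± 0.19, adjusted p = 0.0462), and differed by 0.30 ± 0.20 with MCOPPB under DEN/HFD. The zinc and iron carrier Slc39a14 differed by -0.59 ± 0.21 between MCOPPB groups. Hamp2, a hepcidin paralog, differed by 2.02 ± 0.95 with MCOPPB under DEN/HFD (adjusted p = 1), Smad6, an inhibitor of BMP signalling, by 0.76 ± 0.25 and Lcn2, a siderophore-binding protein, by 2.08 ± 0.78 with MCOPPB on chow. Transferrin (Trf) differed by 0.76 ± 0.27 and hemojuvelin (Hfe2) by 0.44 ± 0.16 between saline groups. The medians in the same order were 0.19, -0.07, 0.13 and -0.13. At an unadjusted p under 0.05 there were 3 higher and 0 lower, 1 and 0, 3 and 2, and 2 and 3. Such a p was found for 9.06%, 4.74%, 11% and 12.3% of all genes, in either direction.

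Among 21 genes that regulate Alas1, 20 were tested and none passed. In the MCOPPB groups, where Alas1 was lower under DEN/HFD, 1 was higher and 7 were lower at an unadjusted p under 0.05, with a median of -0.23. Of all genes, 5.98% were higher and 6.35% lower, with a median of -0.01. The clock gene Per2 was 292 ± 150.0 on chow and 53.9 ± 22.9 under DEN/HFD (log2 difference -1.48 ± 0.38, adjusted p = 0.0874), and Nr1d2, a heme-binding nuclear receptor of the clock, differed by -0.65 ± 0.18 (adjusted p = 0.12). Per2 also differed by -1.09 ± 0.40 and Per1 by -0.73 ± 0.35 with MCOPPB under DEN/HFD. Alas1 is under clock control in mouse liver, and the hour at which livers were taken is not given in the sources used here, so its part in these values was not tested. On chow, Nr1i2, the pregnane X receptor that induces Alas1 and cytochromes P450, differed by 0.48 ± 0.16 with MCOPPB (adjusted p = 0.345), and Nr1d1, a repressor of Alas1, by -1.01 ± 0.38 (828 ± 382 against 406 ± 287 normalized counts). Cebpa differed by 0.61 ± 0.24 and Nr1d2 by -0.37 ± 0.19 between saline groups. In the other 3 comparisons the medians were 0.09, -0.15 and -0.04. The counts there at an unadjusted p under 0.05 were 2 higher and 1 lower, 0 and 1, and 1 and 0. Such a p was found there for 9.06%, 4.74% and 11% of all genes, in either direction.

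Among hepatic hemoproteins and their partners, 25 of 26 were tested and 1 passed. Por, the reductase that passes electrons to the cytochromes P450 and to heme oxygenase, was 4096 ± 764 in the chow MCOPPB and 1062 ± 155 in the DEN/HFD MCOPPB livers (log2 difference -1.85 ± 0.28, adjusted p = 0.0028). With MCOPPB on chow it differed by 1.27 ± 0.28 (adjusted p = 0.0601). In the same MCOPPB comparison Cyp7a1, the rate-limiting enzyme of bile acid synthesis, differed by -1.89 ± 0.48 (adjusted p = 0.0869). Cyp2d9 differed by -1.52 ± 0.38 with MCOPPB on chow and by -1.24 ± 0.39 under DEN/HFD, and Cyp51, of sterol synthesis, by 1.01 ± 0.28 with MCOPPB under DEN/HFD and -0.52 ± 0.28 between saline groups. Myoglobin (Mb) differed by -1.73 ± 0.73 between saline groups. The medians, in the order used above, were 0.12, -0.16, 0.06 and -0.30. The counts at an unadjusted p under 0.05 were 4 higher and 1 lower, 2 and 3, 0 and 1, and 0 and 4. Such a p was found for 9.06%, 4.74%, 11% and 12.3% of all genes, in either direction.

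Markers of other cells were measured beside these. Neutrophil (3 of 14 tested), platelet (1 of 12) and lymphocyte (2 of 12) markers were near 0 for most genes, and none passed. Neutrophil medians were 0.23, 0.20, 0.38 and -0.18, with Lcn2 at 2.08 ± 0.78 on chow and Csf3r at -0.34 ± 0.24 under DEN/HFD. The summed neutrophil list ran over 122 to 243, 215 to 5778, 46.8 to 733 and 242 to 849 normalized counts in the 4 groups, of which Lcn2 made up to 5693. Clec1b, the only gene of the platelet list that was tested, differed by 0.16, -0.17, 0.57 and 0.24. By itself it is no measure of platelets. The list sums were 44.6 to 297. The lymphocyte gene Ighm differed by -0.59 ± 0.24 with MCOPPB on chow and Cd3e by 0.68 ± 0.26 between saline groups, and the list medians were -0.15, -0.17, 0.23 and 0.21.

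Kupffer cell markers, for the macrophages that clear old red cells in liver, were all tested and none of the 12 passed. On chow all 12 had a positive difference with MCOPPB, 8 at an unadjusted p under 0.05, with a median of 0.59, where 50.1% of all genes had a positive difference and 4.76% were higher at that p. Their sum was 1233 to 1524 with saline and 2276 to 4014 with MCOPPB. C1qc differed by 0.77 ± 0.19 (adjusted p = 0.148) and Cd5l by 1.01 ± 0.26. Under DEN/HFD the sums were 2103 to 4615 with saline and 2555 to 4922 with MCOPPB, with a median of 0.21. Between saline groups the median was 0.64, with 6 higher and 0 lower at an unadjusted p under 0.05 (5.46% and 5.5% of all genes), and between MCOPPB groups 0.14, with 1 higher and 3 lower (5.98% and 6.35%), among them Cd163 at -1.19 ± 0.29 and Marco at -1.36 ± 0.50. Cd163 was near the floor in the DEN/HFD MCOPPB livers. On chow the Kupffer sums, like the mean globin levels, were higher with MCOPPB, while between the MCOPPB groups they overlapped, and their part in the globin values was not tested. Hepatocyte markers (12 of 12 tested, none passing) had medians of 0.05, -0.10, 0.03 and -0.07, with Apoa1 at -0.75 ± 0.26 on chow and Cps1 at -1.31 ± 0.31 (adjusted p = 0.0593) between MCOPPB groups. Endothelial markers (10 of 10 tested, none passing) had medians of 0.28, 0.00, 0.24 and -0.09, with Pecam1 at 0.82 ± 0.22 on chow and 0.69 ± 0.23 between saline groups.

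The genes whose log2 values followed the members most closely over the 15 libraries are given as a description. For Hbb-bs the 3 other globins came first of all tested genes, Hbb-bt at r = 0.91, Hba-a2 at 0.90 and Hba-a1 at 0.87, followed outside the members by Gmds (0.83), Anxa11 (0.81), Akap7 (0.80), Rhbdd2 (0.78) and Trim30d (0.77). If reads matching both beta genes were counted for both, the value for Hbb-bt rests partly on the same reads. The alpha and beta genes shared no 75-base window. For Alas2 the closest were Rps4l (0.87), Cox14 (0.85), Mup10 (0.84), Ces3a (0.80) and P2ry2 (0.80). In the chow saline livers Rps4l, Cox14 and P2ry2 stood at 89.7 ± 28.6, 181 ± 50.4 and 130 ± 24.3 normalized counts. Mup10, a major urinary protein, and Ces3a, a carboxylesterase, stood at 1600.4 ± 521 and 23075 ± 5403 in the same livers. No globin was near the top for Alas2: Hbb-bt stood at rank 6049 with r = -0.02. Among the closest for Alas1 were Ppl (0.83), Tspan4 (0.82), Gm14403 (0.81) and Tpbgl (0.81).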

How the data were processed

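RNA was measured in 15 livers, 1 library per animal. Per the labels' protocols, libraries were made with a directional kit from 250 ng of RNA and read as single reads of 75 bases. Per the submitters' processing notes, Trimmomatic, STAR 2.7.0e, HTSeq and DESeq2 were used with GRCm38 (mm10). Their settings, and the strand setting of counting, are not given in the sources used here. The deposited table holds log2 values from the authors' variance-stabilising transform, whose lowest value, 5.49, stands for 0 reads. Normalized counts were obtained by inverting that transform. Whole reads could not be recovered (17.4% to 49.5% of values under 20 reads came out whole within 0.01 read), so no count model was used. The depth per library is therefore an estimate.

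Of 54281 IDs, 54107 were matched to a symbol. The 11568 genes at least 1 log2 unit above the lowest value (22.5 normalized counts) in 3 or more libraries were fitted with limma 3.58.1 in R 4.3.3 (4 group means, trended empirical Bayes, Benjamini-Hochberg adjustment over all of them, 11 residual degrees of freedom). The fit was tested on simulated data. Relations across libraries used log2(normalized count + 1) and permutation tests with 100000 resamples. p-values measure the spread between animals. Replicate numbers in the labels did not pair the animals.

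The members and lists were chosen with earlier results of these data known. The lists are red cell, embryonic globin, heme synthesis, mitochondrial cofactor, heme breakdown, iron, Alas1 regulator, hemoprotein, neutrophil, platelet, lymphocyte, Kupffer, hepatocyte and endothelial genes. The text names every gene of a list that passed, the 2 with the smallest p in each comparison of 2 groups, the measured red cell and heme synthesis genes, and the 5 genes most like Hbb-bs, Alas2 and Alas1. A few genes are not reported here and were left out of the lists. Alternatives were the filter, quantile normalization, log2 of the inverted counts, each RNA integrity number as a covariate, a replicate block, only the groups compared, array weights and leaving out each library. Promoters are from RefSeq (GRCm38.p6), and gene positions from GENCODE M21.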

Additional observations from a re-analysis of the deposited data

How the results depend on the processing

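In DEN/HFD against chow with MCOPPB, 1 of the 6 genes passed. The count was 0 with no filter, with either RNA integrity number as a covariate and with the replicate block, 5 when only the groups compared were fitted, and 0 to 1 when each library was left out. Alas1 had an adjusted p = 0.0595 with no filter, 0.354 and 0.0706 with the first- and second-listed RNA integrity number, 0.15 with the block, and a log2 difference of -2.35 to -1.87 when each library was left out. In the 4 other comparisons the count of members passing was 0 under all alternatives run. Same-numbered animals of different groups did not deviate together: 5 of 19 pairs had a correlation above 0.1, with a mean of -0.03 against 0.01 for the 64 other pairs, so the block joins animals that share only a number. It moved the count of all genes passing from 37 to 23 with MCOPPB on chow, from 3 to 0 with MCOPPB under DEN/HFD, from 66 to 16 between MCOPPB groups and from 8 to 2 for the difference of effects.

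Signs turned for differences that had not passed. Between saline groups the first-listed RNA integrity number gave -0.0649 for Hba-a1, -0.23 for Hba-a2 and 0.0518 for Alas1. Array weights gave 0.0828 for Alas1, and the block gave 0.17 for Hbb-bs, 0.12 for Hbb-bt and -0.10 for Alas2. The same number as a covariate gave 0.56 for Alas2 between MCOPPB groups and 0.14 for its difference of effects. With each library left out, the saline comparison ran from -0.19 to 0.85 for Hba-a1, -0.28 to 0.78 for Hba-a2, -0.67 to 0.59 for Hbb-bs, -0.53 to 0.40 for Hbb-bt, -0.70 to 0.39 for Alas1 and -0.11 to 0.32 for Alas2. MCOPPB under DEN/HFD ran from -0.88 to 0.16 for Hba-a1, -0.88 to 0.18 for Hba-a2 and -0.80 to 9.5e-05 for Hbb-bt. The cause was not tested. Of 4 relations, 1 passed, and 2 did with the variance-stabilised values and without chow saline replicate 2. The relation of Alas1 to the globins was 0.602 with those values and 0.53 to 0.75 with each library left out, and that of Alas2 was -0.31 to 0.0099.

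The counts of all genes passing moved by more than 1.5 times as follows. With MCOPPB on chow, 37 became 15 with the first-listed RNA integrity number. With MCOPPB under DEN/HFD, 3 became 6 with no filter, 8 with only the groups compared or array weights, and 0 with quantile normalization or the second-listed number. Between saline groups, 6 became 1 with the first-listed number and 3 with array weights. Between MCOPPB groups, 66 became 0 and 34 with the first- and second-listed number, 135 with only the groups compared and 285 with array weights. The difference of effects went from 8 to 2 with no filter, 4 with log2 of inverted counts, and 3 and 2 with those numbers. With each library left out, the 5 counts ran over 13 to 50, 0 to 6, 1 to 52, 18 to 157 and 2 to 12, in the order of these sentences. The lowest on chow came without chow saline replicate 3, the only library to move that count by more than 1.5 times. Under DEN/HFD the count was 0 without chow saline replicate 3 or any DEN/HFD library, and 6 without chow saline replicate 2. Between saline groups it was 52 without DEN/HFD saline replicate 4, and it fell by more than 1.5 times without any chow saline library, chow MCOPPB replicate 1 or DEN/HFD saline replicate 1 or 3. Between MCOPPB groups it was 157 without DEN/HFD saline replicate 4 and 18 without DEN/HFD MCOPPB replicate 3, and it also fell that far without chow MCOPPB replicate 1, 3 or 5 or DEN/HFD MCOPPB replicate 1 or 2. For the difference of effects 12 of 15 libraries moved it that far. With 3 to 5 animals a group, the SE of the members' log2 differences between 2 groups was 0.31 to 0.51.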

Other observations

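In the chow saline livers, globin and band 3 messages stood apart in level. Slc4a1, which encodes the main membrane protein of red cells, was at 0 in all 3 chow saline livers, where the 4 globins summed to 2709.9 to 10245 normalized counts. Other genes of the red cell list, Klf1 and Ank1 among them, were above 0 in that group. Alas2 stood at 509 to 1002 normalized counts in those livers. Across the 15 livers the correlation of Alas2 with each globin was -0.21 to -0.02. The sources of the globin and Alas2 signals were not tested.

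DEN/HFD saline replicate 3 held the highest Hba-a1, Hba-a2 and Hbb-bt of all 15 and the highest alpha to beta ratio (2.25), and chow saline replicate 3 the highest Hbb-bs and the lowest ratio (0.805).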
